A study of Homo sapiens with 4 samples.

Results

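Autophagy is the process by which a cell wraps part of its cytoplasm in a double membrane, the autophagosome, and delivers it to lysosomes for digestion. A kinase complex around ULK1 or ULK2 starts it, a class III PI3-kinase complex marks the growing membrane, and a pair of ubiquitin-like reactions, one that joins ATG12 to ATG5 and one that the joined pair promotes, attach small proteins of the ATG8 family (the LC3 and GABARAP proteins) to that membrane, where cargo receptors such as SQSTM1 (p62) dock. In acute promyelocytic leukemia (APL) autophagy is known as a route by which cells treated with arsenic trioxide (ATO) degrade the PML-RARA fusion protein. The question asked here was which genes of this machinery differed in mRNA level between naive and ATO resistant cells of the APL line NB4.

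The genes were taken by name. They comprised every gene that the array names as an ATG gene with a number, a MAP1LC3, a GABARAP, ULK1 to ULK4, WIPI1 or WIPI2, together with BECN1, SQSTM1, NBR1, UVRAG, PIK3C3, PIK3R4, RB1CC1, TFEB, WDFY3 and AMBRA1. This gave 63 probes for 38 genes, of 41000 probes on the array. The rule itself uses no measured values, but the genes were chosen with earlier results of these data known.

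NB4 is a widely used cell line from human APL and carries PML-RARA. The 2 naive samples were NB4 cells, and the 2 resistant samples were the in-house ATO resistant line, given in the array labels as NB4-VM-AsR1 and in the methods as NB4-EV-AsR1, which are taken here to be the same clone. Each sample was an independent flask grown in RPMI with fetal bovine serum, and the resistant cells had been kept without ATO for 1 week, so neither line was under the drug when RNA was taken. The resistant line is 1 clone, so that what belongs to resistance and what belongs to this clone cannot be told apart.

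Each flask was hybridized to 1 Agilent 1-colour array, and values are log2 signal relative to the 75th percentile of the array (0 is the 75th percentile). Between 27922 and 28244 probes per array were well above background, and all 4 arrays lay on 1 slide. Of the promyelocyte markers all 8 were measured, with MPO, the myeloperoxidase of the primary granules, between 5.79 and 6.13 in the 4 flasks, and the summed level of the list was 6.85 to 7.02 in naive and 7.13 to 7.40 in resistant flasks (log2), with ELANE and AZU1 called higher and ANPEP lower. Stromal markers were measurable in none of 4 genes, the erythroid list in 1 of 3 and the B cell list in 2 of 3, with none called. The T cell list summed to at least 0.65 in the naive flasks and to -3.04 and -2.67 in the resistant flasks. CD3D was well above background on no resistant array, so it entered the test only through the naive line, where it is high. Set from the naive mean against the background bound, CD3D fell 169-fold and CD3G 2.19-fold, figures that leave out the spread of the naive flasks. CD2 was not called but lay the other way, at -5.27 and -5.06 in naive and -4.47 and -3.82 in resistant flasks (log2 change 1.02). CD3E lay between -4.50 and -4.21 in all flasks. The part of the shift of the T cell list in the autophagy values was not tested. In bulk RNA, fewer cells that express a gene and less RNA per cell cannot be told apart.

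The test was limma's, on probes that both arrays of 1 line or of both lines measured well above background, and a probe was called if its Benjamini-Hochberg adjusted p over all 28221 such probes was below 0.05, with a change of at least 2-fold. Of the 63 autophagy probes, 57 for 36 genes could be tested, and 56 of the 63 were well above background on all 4 arrays. The 6 untested probes were both of ATG9B, the only one of MAP1LC3C, and 1 each of ULK2, ULK4 and ATG2B. ATG9B, a paralog of the membrane protein ATG9A, and MAP1LC3C, an LC3 paralog, thus have no tested value here.

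Nearly the whole autophagy machinery was measured in both lines, and 1 of its 57 tested probes was called: that of ULK2, which fell in the resistant line. That probe entered the test only through the naive line, where it is high, and 0 autophagy probes were called with no filter on dim probes or where all 4 arrays had to be well above background. None was called higher. Over all tested probes 5.29% were called, 2.31% higher and 2.98% lower. Taking the brightest tested probe for each gene, 1 of 36 autophagy genes was called, against 5.50% of all genes (2.50% higher, the rest lower). The uncalled probes had fitted log2 changes (resistant minus naive) between -0.81 and 1.06 with adjusted p between 0.0881 and 0.992.

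The median log2 change over the 36 genes was 0.084, against -0.014 over all tested genes, and the median size of the change over probes was 0.38, against 0.34 over all tested probes. A fitted change of at least 2-fold in either direction was seen in 2 of the 57 probes, ULK2 (lower) and WIPI1 (higher), against 12.3% of all probes (6.09% higher and 6.17% lower). At an unadjusted limma p below 0.05 there were 9 probes, 6 higher and 3 lower, for 8 genes, against 19.1% of all probes (9.25% higher and 9.82% lower). Counted over both directions, none of these exceeded the share over the whole array.

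**Figure D1:**
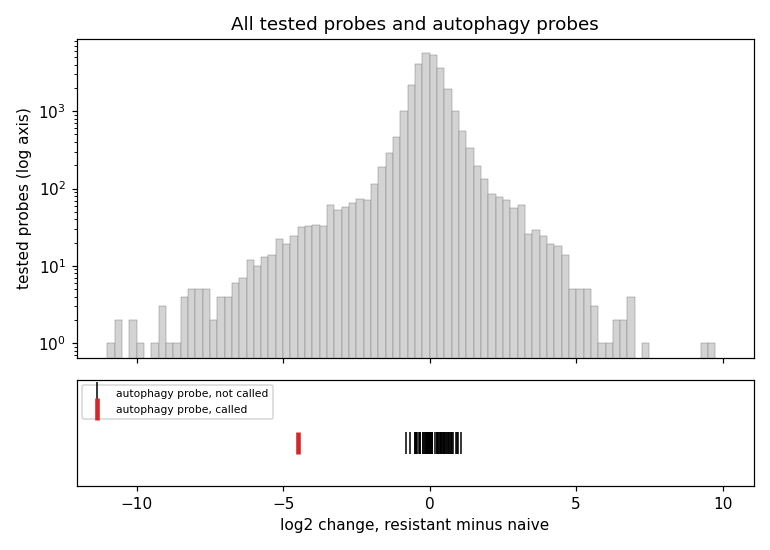
Distribution of the log2 change (resistant minus naive, x axis) over all 28221 tested probes, as counts on a log axis (upper panel), and the position of the 57 autophagy probes (lower panel, 1 line a probe, red for the called one). The 56 uncalled autophagy probes lie between -0.81 and 1.06, and ULK2 lies apart at -4.48.

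ULK2 is a serine/threonine kinase that can take the place of ULK1 at the head of the pathway. The array carries a pair of ULK2 probes at positions 5640 and 8596 of its listed transcript. They are shown because the single call of the machinery rests on the first of them and the second could not be measured. The first 30 of the 60 bases of each probe, as the array files list them, read 5′ to 3′:
ULK2 probe A_23_P55107 (hg19 chr17:19677582-19677641, minus strand): gtatattaaaggtcttggggtagatggtgt
ULK2 probe A_24_P932594 (hg19 chr17:19674626-19674685, minus strand): agacatctatgttgcccttttaagtcaatt

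The log2 level of ULK2 at the first probe was -3.39 and -1.78 in the naive flasks and -7.54 and -6.58 in the resistant flasks. Both naive flasks were well above background and both resistant flasks were not. The lines did not overlap, although the naive flasks themselves lay 1.62 apart. The fitted log2 change was -4.48 (SE 0.61, 95% interval -6.02 to -2.93, adjusted p = 0.0175). Since the resistant level is a bound only, the naive mean was set against that bound, which gave 15.5-fold lower. That figure leaves out the spread of the naive flasks, so it is not a minimum. The value depended on the background correction: with normexp the log2 change was -1.05 and was not called (adjusted p = 1.00), and with normexp and bright local backgrounds reset it was -1.71 (adjusted p = 0.0488). The call was also lost with no filter on dim probes (adjusted p = 0.0532) and in the methods' t-test after adjustment (adjusted p = 0.323), and the probe was not tested where all 4 arrays had to be above background. It was kept whichever single flask was left out, with log2 changes between -5.29 and -3.67. The second ULK2 probe was well above background on no array, at -8.75, -7.25, -8.67 and -8.70, so it gives no second reading.

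The promoter of ULK2 is printed as the upstream sequence of the single called gene. It runs from 250 bases before to 50 after the start in RefSeq (GRCh38.p14 chr17:19867887-19868186, minus strand):
ULK2 promoter: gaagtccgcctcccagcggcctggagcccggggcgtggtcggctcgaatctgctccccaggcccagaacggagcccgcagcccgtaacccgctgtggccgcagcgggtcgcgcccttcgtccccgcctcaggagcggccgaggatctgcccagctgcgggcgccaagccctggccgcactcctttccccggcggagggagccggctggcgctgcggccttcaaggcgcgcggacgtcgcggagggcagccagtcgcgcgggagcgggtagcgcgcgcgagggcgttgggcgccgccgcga
TFEB, the transcription factor that drives many autophagy and lysosome genes, binds a motif around the E-box CACGTG, which reads the same on both strands. The E-box does not occur in this ULK2 window. It occurs in 2548 of 35116 such windows (7.26%) and in those of 2 of the 31 autophagy genes with an entry, ATG3 and ULK3. The longer TCACGTGA, which contains it, occurs in 344 windows (0.980%) and among the autophagy genes in that of ATG3. These matches describe letters only.

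The other members of the initiation complex were not called. ULK1, the main initiating kinase, was at 3.73 and 3.92 in the naive and 4.05 and 4.18 in the resistant flasks, a log2 change of 0.29 (SE 0.23, adjusted p = 0.551). The resistant flasks were slightly above the naive flasks without overlap, but a second ULK1 probe overlapped between the lines (-0.03). RB1CC1 (FIP200), the scaffold of the complex, was at 1.07 and 0.77 in naive and 1.24 and 1.15 in resistant flasks (log2 change 0.27). The remaining subunits are listed on the array under older names. ATG13, as KIAA0652, had a log2 change of 0.26, and ATG101, as C12orf44, one of -0.42, and neither was called.

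Among the related kinases, ULK3 had a log2 level of 2.87 and 3.58 in naive and 4.10 and 4.30 in resistant flasks. Both resistant flasks lay above both naive flasks, yet the naive flasks differed by 0.71, and the change of 0.97 (SE 0.31, 95% interval 0.19 to 1.76) was not called (adjusted p = 0.183). The other ULK3 probe gave 0.66 with the same order of flasks. ULK4, a kinase-like protein of less clear function, lay in the opposite order, with -3.40 and -3.74 in naive and -4.03 and -4.02 in resistant flasks (log2 change -0.46, adjusted p = 0.379), and normexp turned its sign.

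**Figure D2:**
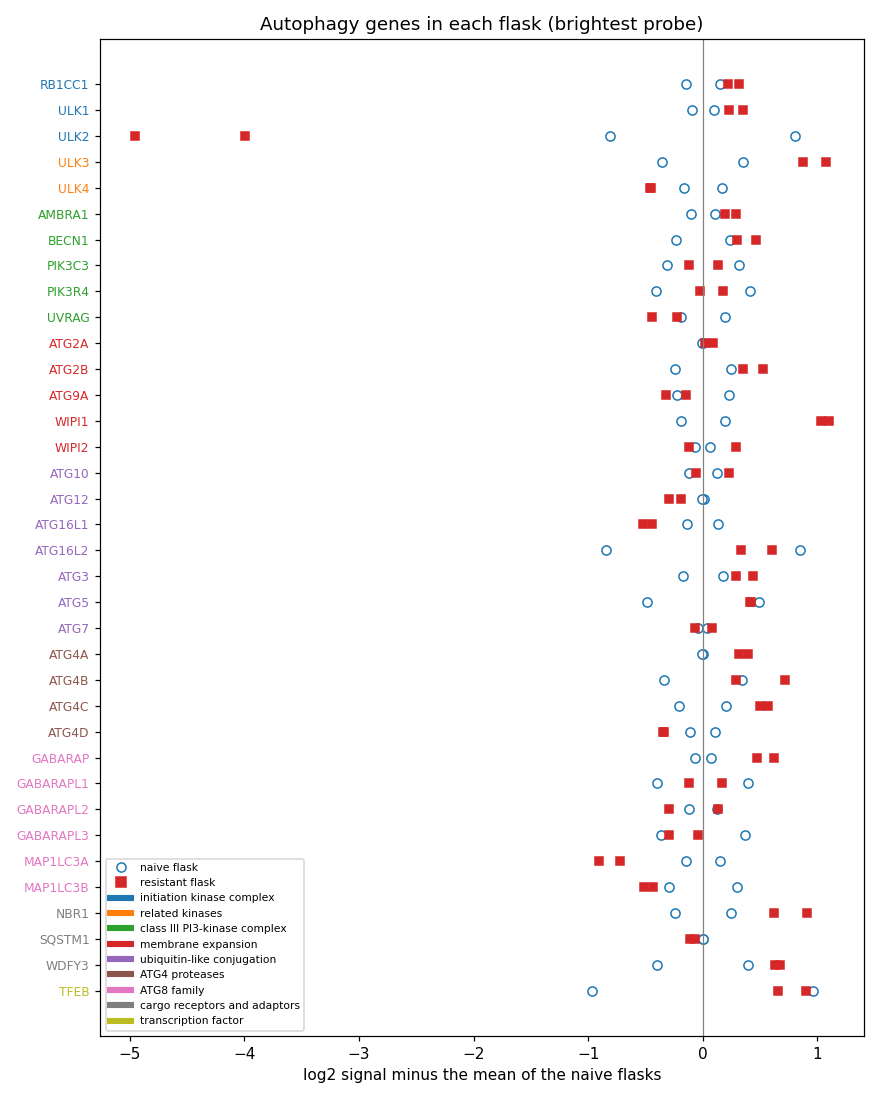
Log2 signal of each of 36 autophagy genes in each flask, drawn as the difference from the mean of the naive flasks (x axis), for the brightest tested probe of the gene. Open circles are naive and red squares resistant flasks, and gene names are coloured by role. ULK2 is the gene whose resistant flasks lie farthest from the naive flasks, at levels of -7.54 and -6.58 against -3.39 and -1.78.

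The class III PI3-kinase complex makes the lipid signal on which the autophagosome grows. None of its 5 genes here was called, and their median log2 change was 0.08. BECN1 (Beclin 1), its regulatory subunit, had 3 probes that all lay higher in the resistant line without overlap, as did 24.5% of all tested probes. The brightest was at 1.65 and 2.12 in naive and 2.18 and 2.35 in resistant flasks, and the 3 log2 changes were 0.38, 0.64 and 0.38, with adjusted p of at least 0.296. PIK3C3 (VPS34), the catalytic subunit, overlapped between the lines at both probes (0.01 and 0.20), and so did PIK3R4 (VPS15), its anchoring subunit (0.08). AMBRA1, which links the complex to the ULK kinases, had a log2 change of 0.24. UVRAG, which defines the form of the complex active at endosomes, had one of -0.33, with -0.66 and -1.04 in naive and -1.08 and -1.29 in resistant flasks. ATG14, the subunit that brings the complex to autophagy and is listed as KIAA0831, had a log2 change of -0.18 and was not called.

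Membrane expansion uses the lipid transfer proteins ATG2A and ATG2B, the scramblase ATG9A and the phosphoinositide binding WIPI proteins. WIPI1, which binds the lipid made by the PI3-kinase, came nearest to a call among the probes that missed it. Its level was -1.08 and -0.70 in naive and 0.14 and 0.21 in resistant flasks, so that every resistant flask was above every naive flask by more than either line's spread. The log2 change was 1.06 (SE 0.25, 95% interval 0.44 to 1.69), with adjusted p = 0.0881. WIPI2, which recruits the conjugation enzymes to the same lipid, overlapped between lines at all 3 probes, with log2 changes of 0.08, -0.06 and -0.15. ATG2A (0.06), ATG2B (0.44) and ATG9A (-0.24) were not called. WDR45 and WDR45B, the other members of the WIPI group, had log2 changes of 0.69 and 0.41 and were not called either.

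The 7 genes of the ubiquitin-like conjugation reactions had 13 tested probes, none of them called, and a median log2 change of 0.08. ATG7, the activating enzyme shared by both reactions, was at -1.45 and -1.37 in naive and -1.48 and -1.33 in resistant flasks. Its flasks were interleaved, with a log2 change of 0.01 and a 95% interval of -0.56 to 0.57, which lies within 2-fold either way. ATG3, the E2-like enzyme of LC3, had a log2 change of 0.36, and ATG10, that of ATG12, one of 0.08 at its brighter probe.

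ATG12, the ubiquitin-like protein joined to ATG5, was at 1.44 and 1.42 in naive and 1.13 and 1.24 in resistant flasks at its brightest probe (log2 change -0.24). A second probe gave -0.51, also without overlap, and the dimmest gave 0.09 with overlap, its naive flasks being 1.31 apart. ATG5 had log2 changes of 0.42 and 0.74 at its probes. ATG16L1, which holds the ATG12-ATG5 pair at the membrane, was at 0.97 and 1.24 in naive and 0.66 and 0.59 in resistant flasks (log2 change -0.48, adjusted p = 0.345), and its paralog ATG16L2 at 1.60 and 3.29 against 2.79 and 3.05 (0.47, adjusted p = 0.701). A dimmer ATG16L1 probe overlapped between the lines (log2 change -0.37, adjusted p = 0.673). The naive flasks of ATG16L2 enclosed both resistant flasks. None of these changes passed the test, and that of ATG16L2 turned to -0.37 without the first naive flask.

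ATG4 proteases trim the ATG8 proteins before conjugation and release them again. No probe of the 4 genes was called. ATG4C had a pair of probes with the same order of flasks, and the dimmer was at -2.33 and -2.39 in naive and -1.50 and -1.44 in resistant flasks. The lines were well apart there, with a log2 change of 0.89 (adjusted p = 0.102), and the brighter probe gave 0.53 (adjusted p = 0.334). ATG4A had a log2 change of 0.36 and ATG4D one of -0.34.

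ATG4B, the protease with the broadest range of ATG8 substrates, was the gene whose probes differed most. They lie at positions 1235 and 2819 of its transcript, and the first 30 of 60 bases of each are shown because the signs were opposite, a choice made after the values were seen:
ATG4B probe A_23_P9903 (hg19 chr2:242611610-242611669, plus strand): ttctgatgtagagcgactggaaagattctt
ATG4B probe A_24_P182764 (hg19 chr2:242613194-242613253, plus strand): atgaagagaatgttgttcattcttagtagt
At position 1235 the level was 0.92 and 0.64 in naive and 0.29 and 0.28 in resistant flasks, lower in both resistant flasks (log2 change -0.50, adjusted p = 0.330). At position 2819 it was 1.46 and 2.14 against 2.09 and 2.52, with overlap (0.50, adjusted p = 0.469). Neither change passed the test.

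The ATG8 family splits into the LC3 proteins (MAP1LC3) and the GABARAP proteins. Of its 10 tested probes, none was called, 1 lay higher and 4 lower in the resistant line without overlap (24.5% and 28.2% of all tested probes), and the median over its 6 tested genes was -0.12. MAP1LC3A was at -4.86 and -4.57 in naive and -5.62 and -5.44 in resistant flasks, lower in both resistant flasks. Its log2 change was -0.81 (SE 0.24, 95% interval -1.42 to -0.21, adjusted p = 0.157). That direction did not hold under normexp, where it was 0.098.

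MAP1LC3B is the LC3 form most used as an autophagosome marker. It had 3 probes, all lower in the resistant line without overlap, as were 28.2% of all tested probes. Their opening bases are shown, again chosen after the values were seen, because one of them does not map to the gene's own locus:
MAP1LC3B probe A_32_P220715 (hg19 chr12:117014181-117014240, plus strand): aaagggatgttaccaactgagatcgatcag
MAP1LC3B probe A_23_P77630 (hg19 chr16:87437440-87437499, plus strand): aaagagtggcatttctcctgtttcaggttt
MAP1LC3B probe A_24_P108005 (hg19 chr16:87437966-87438025, plus strand): tgtgtgtttagatgtgtatgaaatacctgt
The probe on chromosome 12 is also listed for the near copy MAP1LC3B2, so its signal cannot be divided between them. It was at 1.85 and 1.26 in naive and 1.12 and 1.04 in resistant flasks (log2 change -0.47, adjusted p = 0.433). The 2 probes on chromosome 16 were at 0.45 and 0.75 against 0.05 and -0.17 (-0.66, adjusted p = 0.239), and at 0.82 and 1.20 against 0.60 and 0.56 (-0.43, adjusted p = 0.415). The readings shared a sign and a size, and none passed the test.

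GABARAP, the founding member of the other branch, lay the other way, with 1.08 and 1.22 in naive and 1.62 and 1.77 in resistant flasks. The lines did not overlap, and the log2 change of 0.54 was not called (adjusted p = 0.281). GABARAPL1 and GABARAPL2 overlapped between lines at both probes of each, with log2 changes from -0.12 to 0.02, and GABARAPL3, a sequence close to GABARAPL1, had one of -0.17. Whether the probes of these near copies bind each other's RNA was not tested.

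Cargo receptors select what is digested. SQSTM1 (p62), the best known of them and itself degraded by autophagy, was at 2.12 and 2.12 in naive and 2.06 and 2.01 in resistant flasks. This was among the tightest sets of flasks of all the genes, with a log2 change of -0.09 and a 95% interval of -0.64 to 0.46, within 2-fold either way, and scale normalization turned its sign. NBR1, a receptor that works with p62, was at 1.48 and 1.97 in naive and 2.35 and 2.64 in resistant flasks. Its flasks did not overlap (log2 change 0.77, adjusted p = 0.227). WDFY3 (ALFY), a large adaptor for protein aggregates, was higher in both resistant flasks at all 3 probes, with -2.42 and -1.63 against -1.39 and -1.34 at the brightest. The 3 log2 changes were 0.66, 0.73 and 0.94, with adjusted p between 0.211 and 0.355. Of all tested probes, 24.5% lay higher in the resistant line without overlap.

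TFEB was at -3.22 and -1.29 in the naive and -1.60 and -1.35 in the resistant flasks. The first naive flask stood far below the other 3, and the second was level with the resistant flasks. The log2 change of 0.78 (SE 0.63, 95% interval -0.81 to 2.37, adjusted p = 0.559) turned to -0.19 without the first naive flask and to 1.74 without the second, so that its direction depended on which naive flask was kept.

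**Figure D3:**
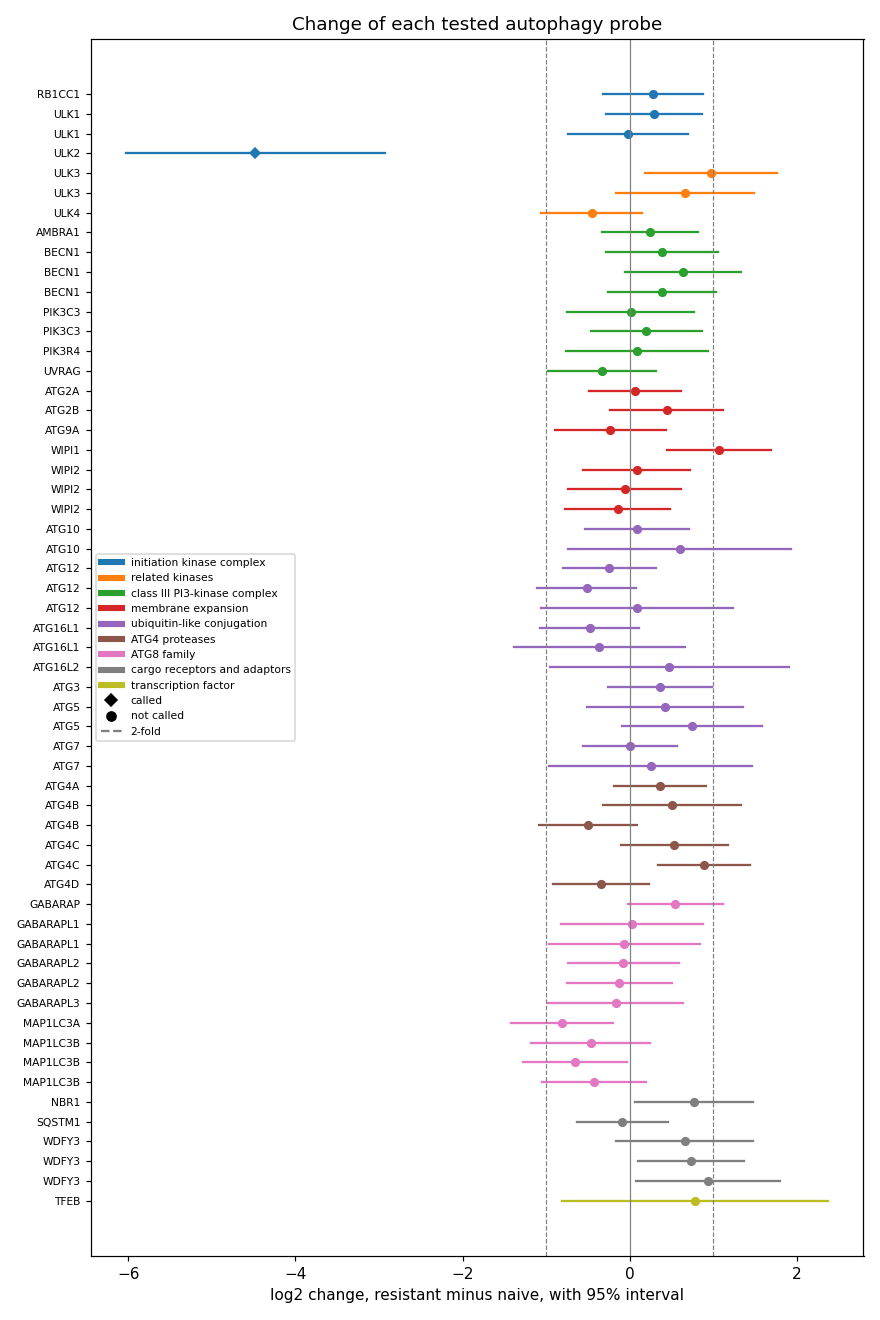
Log2 change, resistant minus naive, of each of the 57 tested autophagy probes with its 95% interval from limma (x axis), coloured by role. Dashed lines mark 2-fold, and the diamond is the called probe. For 25 probes the interval lies within 2-fold either way, and for 31 uncalled probes it reaches past 2-fold.

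The spread between flasks set what could be seen. The median SE over the autophagy probes was 0.26, and the smallest change among the called probes of the whole array was 1.17 (log2). For 25 of the 57 autophagy probes the 95% interval lay within 2-fold either way, against 42.9% of all probes, and for 31 uncalled probes, those of WIPI1 and ULK3 among them, it reached past 2-fold. At those 31 probes a change of over 2-fold lay within the error. With 2 flasks a line the smallest p of an exact permutation test on 1 probe is 0.333, so that a call needs limma's estimate of the spread, which borrows from the other probes.

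The lines did not overlap at 34 of the 57 probes, 21 higher and 13 lower in the resistant line, against 52.7% of all probes (24.5% higher and 28.2% lower). At 33 probes the gap between flasks of 1 line exceeded the difference between the lines, against 61.2% of all probes. The naive flasks differed more than the resistant flasks at 46 of the 57 probes, against 71.1% of all, with a median gap of 0.41 and 0.15 (log2). A naive gap of at least 1 was seen at 5 probes, of TFEB, ATG16L2, ULK2, ATG7 and ATG12, and the first naive flask was the lower in all 5. The single resistant gap of that size was at the dimmer ATG10 probe, with -2.90 and -4.34.

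**Figure D4:**
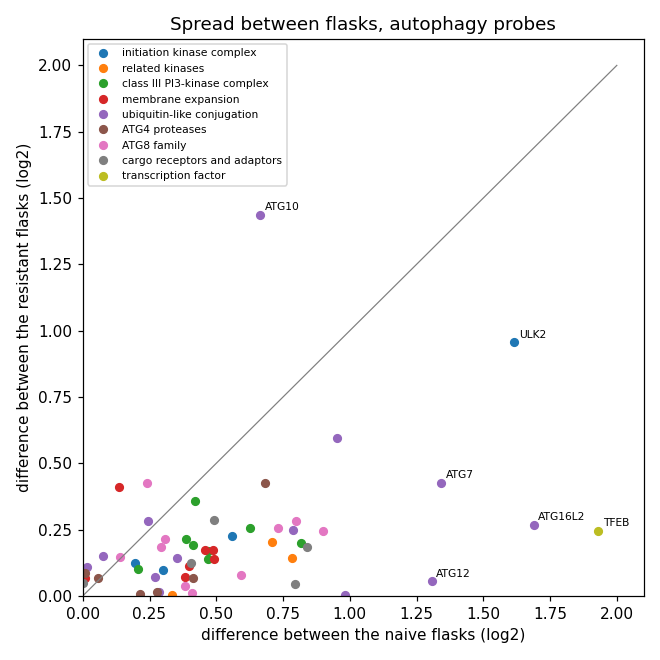
Absolute difference between the naive flasks (x axis) and between the resistant flasks (y axis) for the 57 tested autophagy probes, in log2 units and coloured by role, with the line of equal differences. Of the points 46 lie below the line, and the probes with a difference of at least 1 are named.

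The second naive flask decided the count. Without it, 10 of the 57 probes were called, 9 of them higher, for ATG16L2, ATG5, NBR1, TFEB, ULK2, ULK3, WDFY3 and WIPI1, against 16.3% of all probes. Without any other single flask only ULK2 was called, while the share over all probes was 13.4% without the first naive flask, 2.58% without the first resistant flask and 2.51% without the second. Since the rise without the second naive flask was array-wide, it does not single out the autophagy probes. The share over all probes was not split by direction in these fits, so the higher calls cannot be set against the array. A fit with 1 sample in a line assumes that this sample varies like the other line.

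Of the 36 tested genes, 16 had more than 1 tested probe (37 probes in all). The probes of 11 genes shared a sign. Those of ATG12, ATG4B, GABARAPL1, ULK1 and WIPI2 did not. The range of a gene's log2 changes was under 0.5 in 13 of the 16 genes, and the widest, of ATG4B, was 1.00.

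Further genes of the pathway were described from lists drawn up beside the 38. Of 66 tested genes, 4 were called by their brightest probe, 3 higher and 1 lower, against 5.50% of all genes, with a median log2 change of 0.17. None of the 12 genes for fusion with lysosomes, none of the 13 other regulators of nucleation and none of the 5 core genes under older names was called. Among the 22 genes of MTOR and AMPK signalling, which set autophagy by nutrient and energy state, 2 were called higher.

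DEPTOR (listed as DEPDC6), an inhibitory partner of MTOR, was at -3.85 and -4.28 in naive and -2.09 and -2.08 in resistant flasks. Both resistant flasks lay far above the naive ones, and the log2 change was 1.98 (SE 0.25, adjusted p = 0.0142). RRAGB, a GTPase that brings MTOR complex 1 to the lysosome in the presence of amino acids, was at -4.14 and -4.30 against -2.59 and -3.00 (log2 change 1.43, adjusted p = 0.0423). Neither gene's flasks overlapped between the lines. RRAGB was not called under quantile normalization, normexp with bright backgrounds reset, no filter on dim probes or the replicate block. Nor was it called where all 4 arrays had to be well above background. DEPTOR was called under each of these settings.

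FOXO1, a transcription factor that can induce autophagy genes, rose from -2.46 and -2.38 in naive to -0.98 and -0.84 in resistant flasks, without overlap (log2 change 1.51, adjusted p = 0.0227). A second FOXO1 probe had the same order of flasks but was not called (0.93, adjusted p = 0.106). OPTN (optineurin), a receptor for damaged mitochondria and bacteria, was the single call among 10 other cargo receptors. It was at -4.42 and -4.37 in naive and -6.40 and -7.17 in resistant flasks, where only 1 of the 2 arrays was well above background, with a fitted log2 change of -2.39 (SE 0.32, adjusted p = 0.0161). OPTN entered the test through the naive line, and it was not called where all 4 arrays had to be above background or after normexp with bright backgrounds reset. None of the 4 was called after normexp without the reset or in the methods' t-test after adjustment. The count of called genes on these lists was 9 without the first naive flask, 9 without the second, 1 (OPTN) without the first resistant flask and 0 without the second.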

How the data were processed

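Gene expression in 2 naive and 2 ATO resistant flasks of NB4 was measured on Agilent 1-colour whole human genome arrays. Per the file headers the images were read by Feature Extraction 10.5.1.1, whose processed signal the authors deposited, an intensity on a linear scale after background subtraction and trend correction. The mean spot signal and median local background, used for normexp, were deposited as intensity too. A deposited log2 table came from the authors' GeneSpring GX analysis, which set each array to its 75th percentile. For the autophagy probes it differed from the values used here by at most 5.0e-05, after taking out the median difference.

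In R 4.3.3, control spots and outlier spots were left out, log2 values were shifted to each array's 75th percentile, and spots of a probe were averaged. A probe counted as well above background on an array if at least 0.5 of its spots were. limma 3.58.1 (lmFit, eBayes, Benjamini-Hochberg) compared the lines on all 4 arrays, and the code was checked on simulated data. There, 0 of 200 changes of log2 size 1 were called, 183 of 200 of size 2 and 199 of 200 of size 4. False calls numbered 0, 22 and 25. The bound for ULK2 and CD3D set the naive mean against a floor of the resistant arrays. That floor was their lowest signal well above background, or the probe's own signal if higher. The bound leaves out the spread of the naive flasks. The brightest tested probe stands for a gene. Arrays have no read depth, and their number limits the precision. All arrays lay on 1 slide, with naive flasks on the first and resistant flasks on the last positions, so position and line cannot be told apart.

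Groups follow the sample titles. Every gene chosen could be named, the called ones and the 5 largest changes with full statistics. The genes and lists were chosen with earlier results of these data known. Symbols matched RefSeq for 55 of 63 probes, all unchanged, and 57 probes have an hg19 position in the files. Exon or UTR was not assigned, as no hg19 annotation was used here. Alternatives were normexp with an offset of 50, with and without local backgrounds over 100 reset, quantile and scale normalization, other filters on dim probes, the methods' t-test, the authors' log2 table, no fold limit, a replicate block, leaving out each flask and the mean over a gene's probes.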

Additional observations from a re-analysis of the deposited data

How the results depend on the processing

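The log2 change of ULK2 lay between -5.29 and -1.05 in the alternatives in which it was tested, and its adjusted p lay between 1.43e-04 and 1.00 over them. After normexp 0 autophagy probes, 0 genes and 0 of the 66 other pathway genes were called (limma, adjusted p), with 0, 0 and 3 at an unadjusted p below 0.05, and over the whole array 0 were called and 925 were below that p. Without a filter on dim probes the counts were 0 probes and 0 genes (10 and 5 unadjusted), with ULK2 at a log2 change of -4.48 and adjusted p = 0.0532. When a probe had to be well above background on all 4 arrays, which removes ULK2, the counts were 0 probes, 0 genes (8 and 4 unadjusted) and 2 other pathway genes, DEPDC6 and FOXO1. The methods' t-test with an unadjusted p below 0.05 and 2-fold gave 2 probes and 2 genes, ULK2 and WIPI1, and after Benjamini-Hochberg adjustment it gave 0 probes, 0 genes and 0 other pathway genes (7, 6 and 14 unadjusted). Leaving out 1 flask gave 1 to 10 probes, 1 to 7 genes, 0 to 9 other pathway genes and a median log2 change of 0.031 to 0.22. Scale normalization raised that median to 0.24, while the median of all probes moved by 0.10. After normexp the latter moved by 0.16. The sign reversed for MAP1LC3A after normexp (0.098) and for TFEB without the first naive flask (-0.19), against 1.74 without the second. Over the other 27 genes 28 of 432 values changed sign, none of them called. With the replicate number as a block 1 probe was called, that of ULK2 (limma, adjusted p = 0.00490). The deviations of same-numbered flasks correlated at 0.119. With 2 flasks a line, this cannot tell whether same-numbered flasks were grown or processed together. The cause of these differences was not tested. A slide block was not run, since there was 1 slide.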
